A study of Homo sapiens with 12 samples.

Results

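The IGF2 imprinted locus on human chromosome 11 was followed through ChIP-seq of H3K27me3, a repressive methylation of histone H3, in T24, a human cell line established from a bladder cancer. Its members were the genes IGF2, IGF2-AS and H19, taken wherever any of the deposited peak annotations names them, and every interval of the deposited count table that overlaps the 350 kb of the chromosome from position 1900000 on. These were 3 of 23021 annotated genes and 26 of 273664 intervals. The locus was chosen by measured values: H3K27me3 over IGF2 was lower in the fenretinide and combination libraries than in the vehicle library. Therefore the ratios to vehicle given here are descriptions and carry no test. The 4 ChIP libraries came from cells given 5 µM GSK-126, an inhibitor of the histone methyltransferase EZH2, 5 µM fenretinide, a synthetic retinoid, both compounds at 5 µM each, or DMSO as vehicle, all for 72 h. Each condition had 1 library, so every difference compares libraries, with no replicate check. The 4 input and 4 RNA libraries of the series were not analysed here. The identity of the cells was therefore not checked against expressed markers.

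IGF2 encodes a growth factor of the insulin family, IGF2-AS is a noncoding RNA transcribed from the opposite strand within it, and H19 is a noncoding RNA that also carries a microRNA. In most normal tissues IGF2 is transcribed from the paternal chromosome and H19 from the maternal one, under an imprinting control region between them that carries DNA methylation on the paternal copy. H3K27me3 is written by the Polycomb complex that contains EZH2 and marks genes that are held silent. Fragment counts do not tell the parental copies apart.

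On the GRCh38 build, the RefSeq span of H19 is chr11:1995176-2001266 and that of IGF2 is chr11:2129117-2149566, with IGF2-AS at chr11:2140512-2148666 inside IGF2. H19 and IGF2 lie on the minus strand. The insulin gene INS at chr11:2159779-2161209, and TH, which encodes the rate-limiting enzyme of catecholamine synthesis, at chr11:2163929-2171815, follow at higher coordinates. Of the 3 member genes, 1 has an entry among the RefSeq promoter sequences used here, which run from 250 bases before to 50 bases after the start of a gene. The promoters of H19 and INS are shown because they differ in what covers them. The H19 promoter (chr11:2001217-2001516, minus strand), at the upstream end of the RefSeq span, lay in no interval and under no peak of any library. The deposited annotation counts distances from another H19 start, inside that span, whose promoter is not shown. The INS promoter (chr11:2161160-2161459, minus strand) lay wholly under a peak in the vehicle library and under none in the GSK-126 and combination libraries. In the fenretinide library it was covered in part, by a peak that ends at chr11:2161358 and leaves its upstream part uncovered. Capitals mark CG dinucleotides, the letters CG, which read the same on both strands.
H19: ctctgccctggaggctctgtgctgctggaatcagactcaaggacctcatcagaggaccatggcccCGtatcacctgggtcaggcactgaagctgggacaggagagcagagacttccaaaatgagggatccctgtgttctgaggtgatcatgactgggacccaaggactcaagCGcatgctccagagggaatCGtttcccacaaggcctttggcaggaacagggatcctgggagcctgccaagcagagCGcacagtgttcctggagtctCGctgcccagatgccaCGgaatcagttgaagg
INS: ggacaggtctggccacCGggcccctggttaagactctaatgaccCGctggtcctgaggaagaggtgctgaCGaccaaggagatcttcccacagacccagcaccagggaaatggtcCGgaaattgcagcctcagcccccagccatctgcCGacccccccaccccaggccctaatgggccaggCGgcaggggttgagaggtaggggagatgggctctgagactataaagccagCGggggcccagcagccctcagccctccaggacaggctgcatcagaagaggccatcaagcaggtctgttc
The H19 promoter holds 6 CG and has a GC content of 57.7%, and 66.3% of the 35116 RefSeq promoters of this length (build GRCh38.p14) hold at least as many CG. The INS promoter holds 7 CG at a GC content of 63.0%, and 63.2% of promoters hold at least as many. The median over all promoters was 14 CG, so both printed sequences are poorer in CG than the typical promoter. For H19 this holds for the RefSeq start only. LINC01219, a long noncoding RNA gene next to H19, has a promoter with 15 CG (chr11:1990846-1991145, plus strand). That promoter was wholly covered by a peak in the fenretinide and vehicle libraries and by none in the GSK-126 and combination libraries.

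Values are fragments counted in an interval, fragments per kb of interval, and ratios of library shares, where a share is the interval's fragments over all interval fragments of that library. The libraries held 15812933 to 18928836 such fragments, and averaged 12.5 (GSK-126), 14.6 (fenretinide), 12.2 (combination) and 13.2 (vehicle) fragments per kb over all intervals. A spike-in is named in none of the labels. A ratio therefore says how the locus moved against the rest of its own library and not how much H3K27me3 the cells held. Brackets give 95% intervals from the exact binomial (Clopper-Pearson) interval, which cover counting error only. Intervals with a ratio of 2 or more were called higher and those with 0.5 or less lower, provided that the bracket excluded 1 and the 2 libraries together held 20 fragments or more. All 3 ratios to vehicle share the vehicle library. Scaling instead to the 25% of intervals with the lowest density (background scaling) shifts every log2 ratio to vehicle by -0.77 (GSK-126), -0.13 (fenretinide) or -0.81 (combination), and by -0.68 for the combination over fenretinide; directions that turn under it are named beside the values.

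The interval over the IGF2 body, chr11:2131497-2151005, is 19509 bp long, takes in most of IGF2, all of IGF2-AS and the microRNA gene MIR483, and is the one interval from which both IGF2 and IGF2-AS take a value, so the sense and antisense genes cannot be told apart. It held 123 fragments in the GSK-126 library, 328 in the fenretinide library, 136 in the combination library and 766 in the vehicle library. Per kb this was 6.30 in the GSK-126 library, 16.8 in the fenretinide library, 6.97 in the combination library and 39.3 in the vehicle library. Both libraries with GSK-126 lay lowest and close together, fenretinide lay between, and the vehicle library stood far above the rest. Against the average of its own library the interval stood at 0.506-fold with GSK-126, 1.15-fold with fenretinide, 0.571-fold with the combination and 2.97-fold with vehicle. Among the 28853 intervals of 10 kb or more its density was at percentile 10.9 in the GSK-126 library, 64.1 in the fenretinide library, 9.69 in the combination library and 98.7 in the vehicle library. In both libraries with GSK-126 IGF2 was thus below the average of all intervals, and in the vehicle library it was among the densest long intervals.

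The ratio at the IGF2 body was 0.170 (0.140 to 0.206) with GSK-126 over vehicle, 0.388 (0.340 to 0.442) with fenretinide over vehicle and 0.192 (0.159 to 0.231) with the combination over vehicle. Of the long intervals tested, 11 had a lower log2 ratio than IGF2 in the GSK-126 comparison, 0 of 28837 in the fenretinide comparison and 13 in the combination comparison. Over intervals of all lengths IGF2 was at percentile 1.19 (GSK-126), 0.945 (fenretinide) and 0.921 (combination). These ranks restate the choice of the locus. The combination and GSK-126 libraries, which the choice did not set against each other, differed by a ratio of 1.13 (0.879 to 1.45), a bracket that includes 1 and leaves room for a difference of up to 1.45-fold. The combination over fenretinide gave 0.496 (0.403 to 0.608), just past the 2-fold limit. Scaled to the window's other intervals, whose sum was lower too, the call was lost for fenretinide over vehicle at 0.5596 and for the combination over fenretinide at 0.6364.

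**Figure D1:**
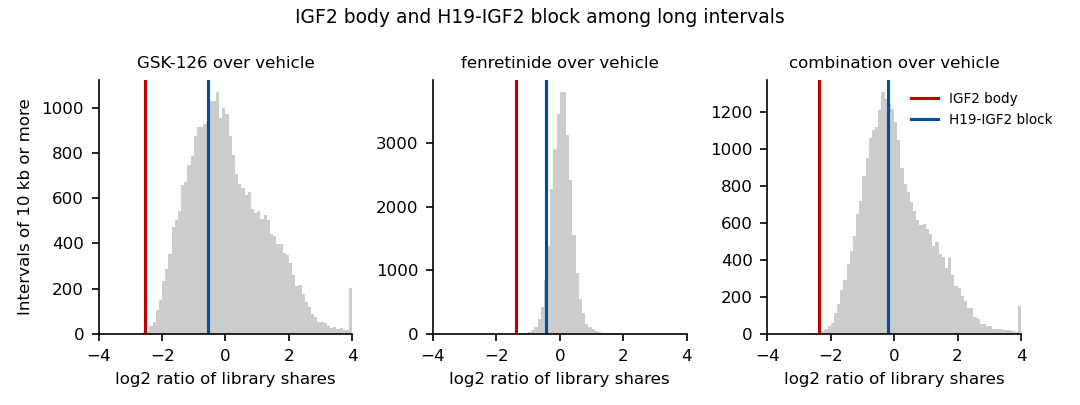
Histograms of the log2 ratio of library shares (horizontal axis) over intervals of 10 kb or more (vertical axis, number of intervals) for GSK-126, fenretinide and the combination over vehicle, with values beyond the axis put in the end bins. The red line marks the IGF2 body at -2.55, -1.37 and -2.37 in that order of panels and the blue line the block between H19 and IGF2 at -0.54, -0.45 and -0.21; the red line stands at the low edge of each histogram, and the spread with fenretinide is much narrower than with GSK-126.

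The peaks of each library, called separately by the authors, divided the IGF2 body differently. In the GSK-126 library 1 peak of 4004 bp (chr11:2144597-2148600, score 16) covered 20.5% of the interval. The score is the authors' own, with no stated scale, and is not compared between lists. In the fenretinide library 2 peaks, chr11:2138331-2141523 (score 20) and chr11:2143994-2151005 (score 25), covered 52.3%, and in the combination library 2 peaks, chr11:2139154-2140229 (score 12) and chr11:2144289-2147393 (score 19), covered 21.4%. In the vehicle library 1 peak of 18060 bp, chr11:2131497-2149556 (score 74), covered 92.6%. The peaks of the treated libraries were shorter, and none reached MIR483 on the downstream side of the gene. A core of 2797 bp, chr11:2144597-2147393, lay under a peak in all 4 libraries and is wholly inside the span of IGF2-AS.

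**Figure D2:**
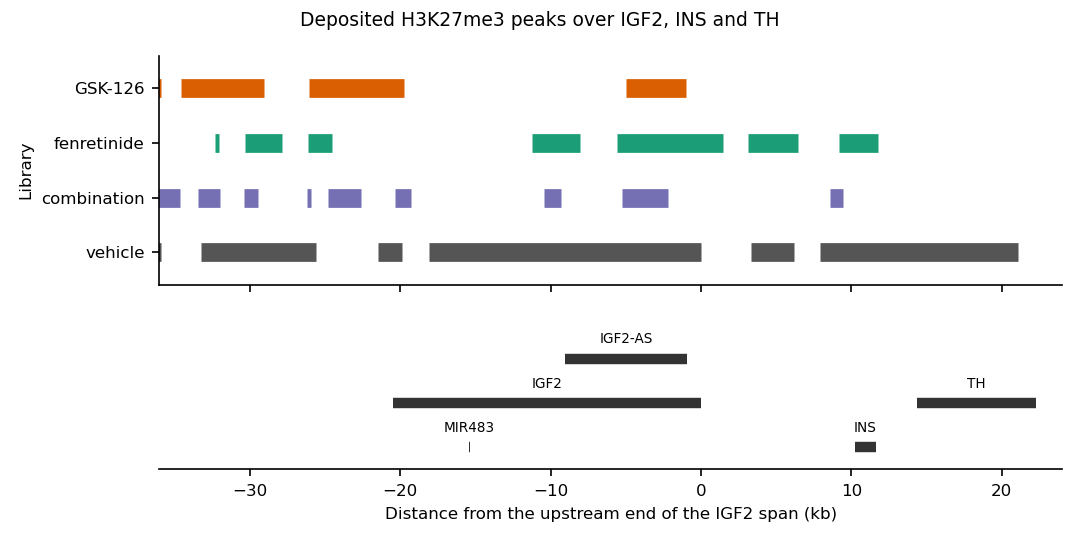
Deposited H3K27me3 peaks in each library (rows, bars to scale) against distance in kb from the upstream end of the IGF2 span, with gene spans underneath; negative distances run into IGF2 and towards H19. The bars of the treated rows are short and missing over MIR483, a single bar covers nearly the whole of IGF2 in the vehicle row, and INS has a bar in the fenretinide and vehicle rows.

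By gene span, peaks covered 23.2% of IGF2 in the GSK-126 library, 42.9% in the fenretinide library, 25.6% in the combination library and 91.1% in the vehicle library. IGF2-AS kept more of its span, with 49.1% under peaks in the GSK-126 library, 69.7% in the fenretinide library, 38.1% in the combination library and 100% in the vehicle library. MIR483, a microRNA gene inside IGF2, lay under a peak in the vehicle library and in no treated library. INS lay wholly under peaks in the fenretinide and vehicle libraries and under none in the GSK-126 and combination libraries. TH had 85.4% of its span under a peak in the vehicle library and 0% in each treated library.

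H19 itself lay outside every interval and peak in all 4 libraries. None of its 6091 bp lay in an interval or under a peak, and it sat in a stretch of 25.63 kb without an interval, chr11:1993143-2018775, together with its microRNA MIR675. The nearest interval was 2033 bp away at the LINC01219 side and the next at higher coordinates was 17509 bp away. No count was therefore given for H19 in the table, which lists only intervals under a peak of some library. The peaks that the deposited annotation names after H19 numbered 2 in the GSK-126 library, 4 in the fenretinide library, 1 in the combination library and 3 in the vehicle library. All lay upstream of the H19 start used by that annotation, the nearest with its centre 21.5 kb from it. Their values describe the ground between H19 and IGF2, not the H19 gene.

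The largest of these H19-named intervals, chr11:2041728-2074010, is an intergenic block of 32283 bp that starts 40461 bp from H19. It held 851 fragments in the GSK-126 library, 1066 in the fenretinide library, 1051 in the combination library and 1316 in the vehicle library. Per kb that was 26.4 in the GSK-126 library, 33.0 in the fenretinide library, 32.6 in the combination library and 40.8 in the vehicle library, which was nearly the density of the IGF2 body in the vehicle library. All 3 treated libraries lay lower than vehicle, by much less than at IGF2: the ratio was 0.686 (0.628 to 0.748) for the GSK-126 library, 0.733 (0.676 to 0.795) for the fenretinide library and 0.865 (0.797 to 0.939) for the combination library, none of them called; relative to the window's other intervals the block was instead higher, at 1.728, 1.143 and 2.079 in that order. Under background scaling the block passed the 2-fold limit with GSK-126, at 0.4035, and with the combination, at 0.4927. In its own library the block stayed dense, at percentile 92.7 with GSK-126, 96.1 with fenretinide, 98.2 with the combination and 99.0 with vehicle among long intervals. The combination was above each single compound there, with a ratio of 1.26 (1.15 to 1.38) over GSK-126 and 1.18 (1.08 to 1.29) over fenretinide, both inside the 2-fold limit, though the second turns to 0.7375 under background scaling.

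The density of the IGF2 body over that of the block needs no library scaling, since both come from the same library. It was 0.239 (0.196 to 0.289) in the GSK-126 library, 0.509 (0.449 to 0.577) in the fenretinide library, 0.214 (0.178 to 0.256) in the combination library and 0.963 (0.880 to 1.05) in the vehicle library. The brackets of all 3 treated libraries lie below that of the vehicle library, and those of the GSK-126 and combination libraries overlap. These values reuse the IGF2 counts by which the locus was chosen. The lower values with fenretinide and the combination therefore largely restate that choice and carry no test. IGF2 was thus less dense than the intergenic block in every treated library, while the bracket of the vehicle library included 1.

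**Figure D3:**
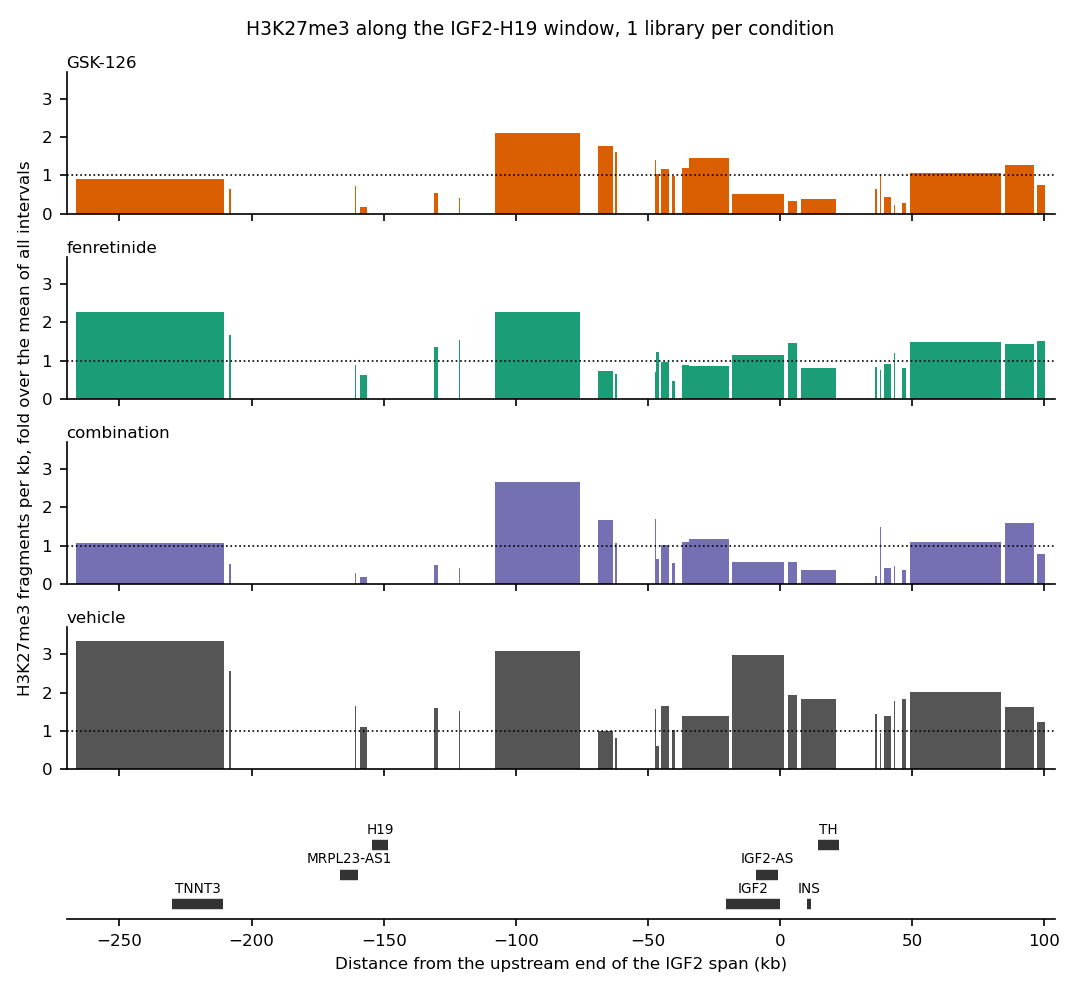
H3K27me3 fragments per kb in each interval, as fold over the mean of all intervals of the same library (vertical axis), against distance in kb from the upstream end of the IGF2 span, with 1 panel per library and gene spans at the bottom. The bar over IGF2 stands at 0.506, 1.15 and 0.571 in the GSK-126, fenretinide and combination panels and at 2.97 in the vehicle panel, while the tall block on the way to H19 stays above 2 in every panel and H19 has no bar.

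Along the window the intervals did not move alike. With GSK-126 over vehicle, 22 of the 26 intervals had enough fragments, 9 were lower, 0 higher and 13 neither, where over all intervals 21.6% were called lower and 25.9% higher. With the combination over vehicle, 9 of 20 tested were lower and 0 higher, beside 15.8% lower and 24.1% higher over all intervals. With fenretinide over vehicle, 3 of 19 were lower and 0 higher, where 2.16% of all tested intervals were lower and 3.31% higher; since the combination and fenretinide contrasts chose the locus, nothing is read from either count. The median log2 ratio of the tested window intervals was -0.83 (GSK-126), -0.61 (fenretinide) and -0.79 (combination), beside -0.01, 0.08 and 0.06 over all tested intervals. Summed over the window, the libraries held 2948 fragments with GSK-126, 5037 with fenretinide, 3204 with the combination and 6920 with vehicle. The window's share relative to vehicle was 0.452 (GSK-126), 0.659 (fenretinide) and 0.502 (combination).

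The fenretinide calls were the IGF2 body, the interval over INS and TH, chr11:2157454-2170663, and a short intergenic interval, chr11:2195527-2197311. The INS and TH interval held 65 fragments in the GSK-126 library, 155 in the fenretinide library, 60 in the combination library and 319 in the vehicle library, with ratios to vehicle of 0.216 (GSK-126), 0.440 (fenretinide) and 0.204 (combination). As at the IGF2 body, vehicle was highest, fenretinide next and both libraries with GSK-126 low. The short interval held 6 fragments with GSK-126, 21 with fenretinide, 8 with the combination and 43 with vehicle, few enough that its fenretinide ratio of 0.442 had a bracket of 0.249 to 0.761. Between IGF2 and this pair lies the interval chr11:2152691-2156039, in the INS-IGF2 readthrough gene, which held 14 fragments with GSK-126, 71 with fenretinide, 24 with the combination and 86 with vehicle. There GSK-126 (0.173) and the combination (0.302) were called lower and fenretinide (0.747, 0.538 to 1.04) was not.

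On the far side of H19, the interval chr11:1883035-1939085 covers LINC01150 and TNNT3, a troponin gene of fast skeletal muscle. It also overlaps LSP1, an actin-binding protein gene of white blood cells, but none of its peaks has LSP1 as the nearest gene. It held 640 fragments with GSK-126, 1854 with fenretinide, 725 with the combination and 2482 with vehicle. The libraries with GSK-126 were low, at ratios of 0.273 (GSK-126) and 0.316 (combination), and fenretinide at 0.676 was not called, unlike at IGF2. The interval at LINC01219 and MRPL23, a mitochondrial ribosomal protein gene (chr11:1990413-1993142), held 6 fragments with GSK-126, 25 with fenretinide, 6 with the combination and 40 with vehicle, and was called lower with GSK-126 at 0.159 and with the combination at 0.163. Of the short intervals upstream of H19, chr11:2018776-2019949 held 8 with GSK-126, 23 with fenretinide, 7 with the combination and 25 with vehicle, and chr11:2028075-2028474 held at most 9 in any library, too few for a call in any comparison.

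The stretch between the block and the IGF2 body behaved otherwise. In the interval chr11:2080651-2086319, beside the block, 125 fragments were counted with GSK-126, 60 with fenretinide, 115 with the combination and 75 with vehicle. The GSK-126 and combination libraries were above vehicle there, by 1.77 (1.32 to 2.39) and 1.66 (1.23 to 2.25), and fenretinide was at 0.724 (0.507 to 1.03), none past the call limits. Under background scaling GSK-126 and vehicle came level at 1.04, and the combination turned to 0.946. The interval chr11:2115024-2130258 reaches into the downstream end of IGF2, from chr11:2129117 on, but lies mostly outside the gene. It held 274 with GSK-126, 190 with fenretinide, 221 with the combination and 279 with vehicle. In that order the treated libraries stood at 1.04 (0.878 to 1.23), 0.616 (0.510 to 0.744) and 0.858 (0.716 to 1.03) of vehicle. GSK-126 stood at the level of vehicle in this mostly intergenic interval, though at 0.613 under background scaling, while the IGF2 body stood at 0.170. By library share fenretinide was the lowest library at both of these intervals. Under background scaling the combination, at 0.489, lay below fenretinide, at 0.562, in the interval that ends inside IGF2.

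On the ASCL2 side the long interval chr11:2198808-2233349 held 455 fragments with GSK-126, 744 with fenretinide, 461 with the combination and 926 with vehicle, ratios of 0.521, 0.727 and 0.539 that miss the 2-fold limit; under background scaling GSK-126 passed it at 0.307 and the combination at 0.307. Its neighbour chr11:2234731-2245619 held 174 with GSK-126, 227 with fenretinide, 211 with the combination and 234 with vehicle, and its ratios lay between 0.789 and 0.977, with GSK-126 at 0.464 under background scaling. At the edges of the window, the last interval inside, chr11:2246769-2249794, had ratios of 0.606 (GSK-126), 1.24 (fenretinide) and 0.641 (combination), and the first outside, chr11:2251473-2265629, had 0.424, 0.865 and 0.475 in the same order. At the other edge the first interval inside is the LSP1 and TNNT3 one, and the first outside, chr11:1879119-1881869, had 0.222 (GSK-126), 0.409 (fenretinide) and 0.175 (combination). In each comparison to vehicle, the ratio was thus below 1 just outside both edges of the window. With fenretinide the last interval inside the higher edge was above 1.

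**Figure D4:**
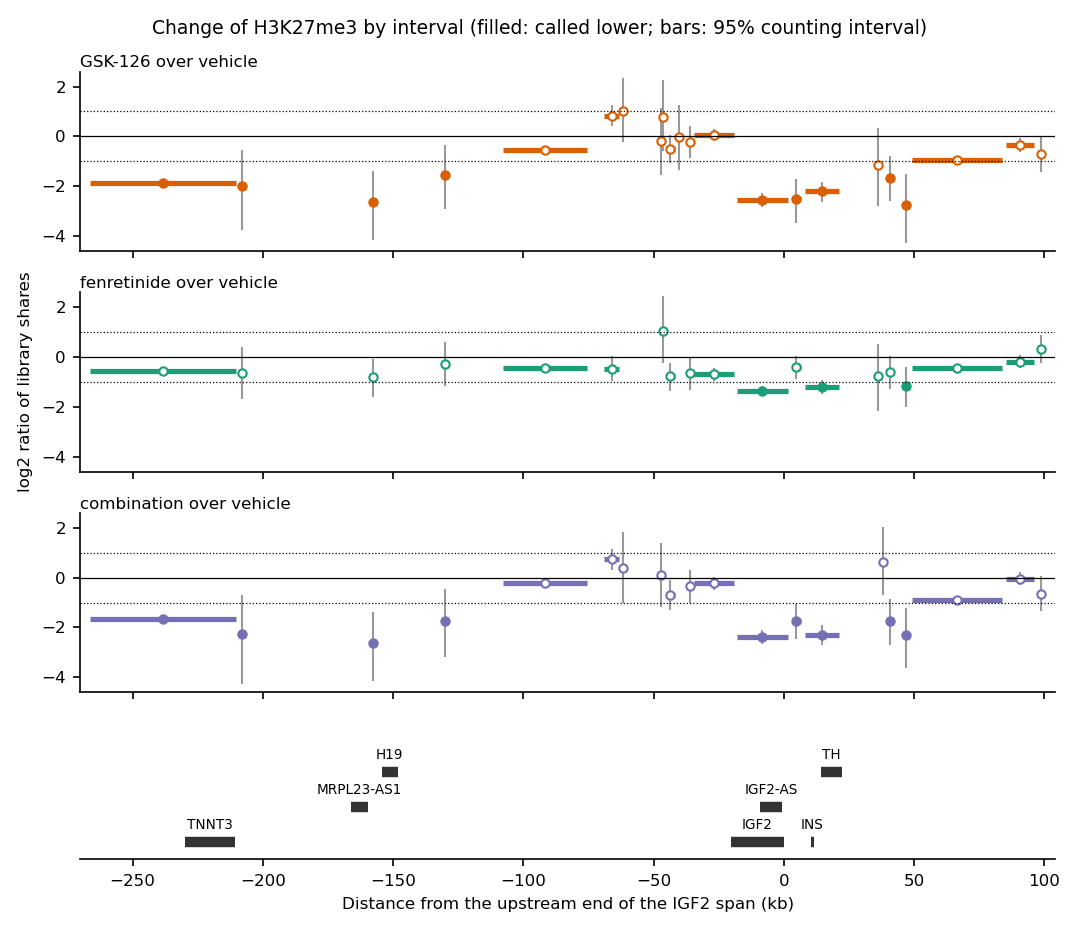
Log2 ratio of library shares to vehicle for each tested interval of the window (vertical axis) against distance in kb from the upstream end of the IGF2 span; coloured bars give interval length, grey lines 95% counting intervals, filled points are called lower, dotted lines mark the 2-fold limits. GSK-126 and the combination have filled points from the TNNT3 end to chr11:2018776-2019949, over IGF2, INS and TH, and at short intervals beyond TH. Their points from the block to the IGF2 body and at the ASCL2 end are open. With fenretinide most points lie between 0 and -1.

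As shares of the window's own fragments, which need no scaling between libraries, the IGF2 body held 4.17% with GSK-126, 6.51% with fenretinide, 4.24% with the combination and 11.1% with vehicle. The block held 28.9% with GSK-126, 21.2% with fenretinide, 32.8% with the combination and 19.02% with vehicle. The 8 intervals from the block to the downstream end of IGF2 held 18.1% with GSK-126, 7.27% with fenretinide, 14.0% with the combination and 7.40% with vehicle. This and the other stretches were drawn after the values were seen, so their shares are descriptions only. In the libraries with GSK-126 the window's H3K27me3 thus lay more between H19 and IGF2 and less over IGF2 and on the TNNT3 side, where the share was 21.9% with GSK-126, 37.1% with fenretinide, 22.8% with the combination and 36.2% with vehicle. The fenretinide library held a smaller share than vehicle at the IGF2 body and at the INS and TH interval, which held 3.08% with fenretinide and 4.61% with vehicle, and a larger one at the block and from TH towards ASCL2, which held 22.2% with fenretinide and 19.3% with vehicle.

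**Figure D5:**
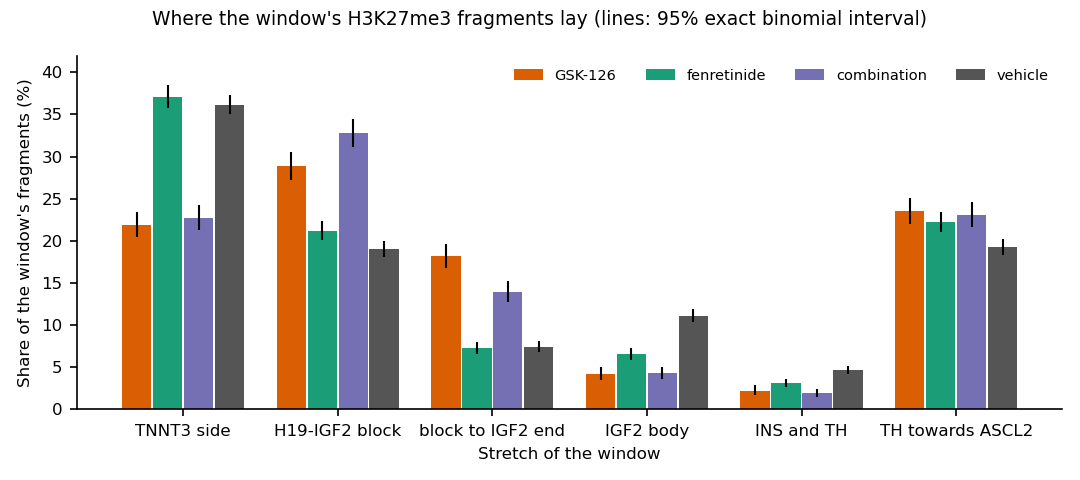
Share of the window's fragments (vertical axis, %) in 6 of its 9 stretches for the GSK-126, fenretinide, combination and vehicle libraries, with lines for the 95% exact binomial interval; the 3 stretches left out held under 2% each. The bars for the IGF2 body stand at 4.17%, 6.51%, 4.24% and 11.1%, and those for the block at 28.9%, 21.2%, 32.8% and 19.02%, in the order of the legend.

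Set against GSK-126 alone, the combination gave no call in the window: of 17 tested intervals 0 were higher and 0 lower, where 2.48% of all tested intervals were higher and 1.82% lower, and the median log2 ratio was 0.05 beside 0.03 over all. Set against fenretinide alone, 7 of 18 were lower and 1 higher, where 12.1% of all tested were lower and 18.6% higher. The 1 higher interval was chr11:2080651-2086319 beside the block, at 2.29 (1.66 to 3.19) and 1.43 under background scaling, and among the lower ones were the IGF2 body at 0.496 and the INS and TH interval at 0.463 (0.338 to 0.628). The bracket of the combination over GSK-126 included 1 at the IGF2 body, INS and TH. It lay above 1 at the block and, at 1.16 (1.04 to 1.29), at the LSP1 and TNNT3 interval, where DESeq2 size factors gave 1.06. At chr11:2234731-2245619 the bracket also lay above 1, at 1.24 (1.01 to 1.52). It lay below 1, at 0.824 (0.687 to 0.987), at chr11:2115024-2130258, which reaches into the downstream end of IGF2.

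Over the window, 25 peaks were called in the GSK-126 library, 29 in the fenretinide library, 26 in the combination library and 29 in the vehicle library, so their number hardly differed. The length under peaks did differ, at 86.5 kb with GSK-126, 147.1 kb with fenretinide, 82.4 kb with the combination and 191.8 kb with vehicle. Of the 26 intervals, 13 held a peak in the GSK-126 library, 16 in the fenretinide library, 11 in the combination library and 23 in the vehicle library. The matching lengths and shares over all intervals are not given here, so these differences are not read as particular to the window. Within its own list, the window's top-scoring peak lay over the block in the GSK-126 (score 31) and fenretinide (score 56) libraries. It lay in the LSP1 and TNNT3 interval in the combination library (score 41) and over IGF2 in the vehicle library (score 74). The number of fragments behind a library bears on what is called, and its part in these lengths was not tested.

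The intervals whose 3 log2 ratios to vehicle were closest to those of the IGF2 body, out of 43513 with at least 300 fragments, lay near PDE4A, a cyclic AMP phosphodiesterase gene, at a Euclidean distance of 0.155, CHRND, a subunit gene of the muscle acetylcholine receptor, at 0.221, FOXO6, a forkhead transcription factor gene, at 0.242, BAHD1, a gene for a heterochromatin protein, at 0.261, DLL1, a Notch ligand gene, at 0.283, and CASZ1, a zinc-finger transcription factor gene, at 0.289. The PDE4A interval held 66 fragments with GSK-126, 193 with fenretinide, 80 with the combination and 458 with vehicle. Among 11069 genes valued by intervals within 10 kb of their start, the closest were FOXO6 at 0.198, EFNA3, an ephrin ligand gene, at 0.238, BAHD1 at 0.261, CACNA1G, a calcium channel gene, at 0.299, ASIC4, of the family of acid-sensing ion channels, at 0.314 and LSP1 at 0.350. LSP1 held 66 fragments with GSK-126, 176 with fenretinide, 56 with the combination and 353 with vehicle at its own start. That value comes from an interval outside the window, not from the LSP1 and TNNT3 interval. All of these were chosen for their likeness over 4 libraries, and carry no test.

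Beyond the window, 14 further genes of the imprinted domain at the tip of chromosome 11 were listed, of which 11 had an interval within 10 kb of a start. A gene needed 50 fragments in the 2 libraries to be tested. With GSK-126 over vehicle, 4 of 9 tested were lower and 1 higher, where 41.4% of all genes tested were lower and 11.5% higher; the list's median log2 ratio was -0.84, beside -0.79 over all genes. With the combination over vehicle, 4 of 8 were lower and 0 higher, beside 32.9% and 9.86% of all genes, with a median of -1.01 against -0.64. With fenretinide over vehicle, 0 of 9 were called in either direction, where 1.5% of genes were lower and 0.337% higher, with a median of -0.44 against -0.15. ASCL2, a transcription factor gene of the placenta and the intestinal stem cell, held 375 fragments with GSK-126, 815 with fenretinide, 403 with the combination and 989 with vehicle, ratios of 0.402, 0.746 and 0.442. TRPM5, an ion channel gene of taste cells that shares intervals with TSSC4 and KCNQ1, was at 0.345 (GSK-126), 0.708 (fenretinide) and 0.398 (combination). PHLDA2, an imprinted gene that restrains placental growth, was the 1 gene called higher, with 43 fragments with GSK-126 and 10 with vehicle, a ratio of 4.56 (2.26 to 10.2) with GSK-126, or 2.68 under background scaling. KCNQ1OT1, the noncoding RNA of the neighbouring imprinted cluster, was at 0.667 (GSK-126), 0.737 (fenretinide) and 0.557 (combination), none of them called, though at 0.393 with GSK-126 and 0.317 with the combination under background scaling.

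Of 33 genes of IGF and insulin signalling, 24 had an interval within 10 kb, among them INS from inside the window. With GSK-126 over vehicle 9 of 17 tested were lower and 1 higher, with the combination 9 of 18 lower and 1 higher, and with fenretinide 1 of 19 lower and 0 higher. Over all genes tested 41.4% were lower and 11.5% higher with GSK-126, 32.9% lower and 9.86% higher with the combination, and 1.5% lower and 0.337% higher with fenretinide. Median log2 ratios were -1.29 (GSK-126), -0.42 (fenretinide) and -0.90 (combination), beside the -0.79, -0.15 and -0.64 of all genes. INSRR, the insulin receptor-related receptor gene, was the 1 fenretinide call at 0.458 (0.314 to 0.659) and stood at 0.140 with GSK-126 and 0.25 with the combination. IGF2R, whose product binds IGF2 and carries it to lysosomes, held 48 fragments with GSK-126, 98 with fenretinide, 50 with the combination and 126 with vehicle, ratios of 0.404, 0.704 and 0.430. IGFBP3, a carrier of IGFs in blood, was at 0.670 with fenretinide and 0.255 with the combination. IGFALS, which holds IGFs in the circulating complex, was the 1 higher gene, with 224 fragments with GSK-126, 40 with fenretinide, 166 with the combination and 34 with vehicle. IGF1, the sister growth factor of IGF2, stood at 1.00 (0.901 to 1.12) with GSK-126 and 1.02 (0.918 to 1.14) with the combination, though at 0.590 with GSK-126 and 0.582 with the combination under background scaling.

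Among 47 other imprinted genes, 36 had an interval within 10 kb, some shared by neighbours such as SNRPN and SNURF. With GSK-126 over vehicle 6 of 32 tested were lower and 5 higher, with the combination 7 of 31 lower and 2 higher, and with fenretinide 0 of 31 were called. The shares over all genes tested were 41.4% lower and 11.5% higher with GSK-126, and 32.9% lower and 9.86% higher with the combination. With fenretinide they were 1.5% lower and 0.337% higher. Their medians were -0.47 (GSK-126), -0.18 (fenretinide) and -0.61 (combination), beside -0.79, -0.15 and -0.64 over all genes. Calls went both ways with GSK-126 and with the combination. DLK1, an imprinted gene for a Notch-like ligand that controls growth, held 145 fragments with GSK-126, 170 with the combination and 559 with vehicle, ratios of 0.275 and 0.330. MEST, an imprinted gene expressed in the embryonic mesoderm, went the other way, with 83 fragments with GSK-126, 48 with the combination and 17 with vehicle, ratios of 5.18 and 3.06, and under background scaling of 3.05 with GSK-126 and 1.74 with the combination, which then misses the 2-fold limit. PPP1R9A, which encodes an actin-binding protein of neurons, was higher with the combination at 3.56 and was at 1.98 (1.29 to 3.11) with fenretinide, just short of the limit. Among genes with the 50 fragments needed for a test, the lowest fenretinide ratio of the IGF and insulin list was 0.458 at INSRR. It was 0.568 at TSSC4 in the chromosome 11 list and 0.626 at KLF14, a transcription factor gene, in the list of other imprinted genes. The ratio of 0.388 at the IGF2 body is the fall for which the locus was chosen.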

How the data were processed

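H3K27me3 was measured by ChIP-seq in 4 libraries of T24 cells. The authors deposited raw fragment counts for 273664 consensus intervals, made with featureCounts 2.0.1 on read pairs without strand and with a minimum overlap fraction of 0.2, per the file headers. They also deposited a peak list with a score for each library, annotated with HOMER, per the file headers. Peaks were called with MACS2 2.1.0 on GRCh38, per the submitters' processing notes. The aligner and the control used for peak calling are not given in the sources used here. Intervals exist only where a peak was called in some library.

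Columns were matched to libraries by title. Interval starts were converted to 1-based positions. Log2 ratios used a pseudocount of 0.5. Gene values summed the intervals under peaks whose nearest start was that gene within 10 kb, and needed 50 fragments in the 2 libraries. No p-value was computed, because each condition had 1 library. Depth was 15812933 to 18928836 interval fragments per library.

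The members and lists were chosen with earlier results of these data known. Named genes were the members, the 6 intervals and 6 genes (of at least 300 fragments) nearest to the IGF2 body over the 3 log2 ratios to vehicle, and up to 3 largest falls and rises per list and comparison. ASCL2, IGF1, IGF2R, KCNQ1OT1 and intervals singled out along the window were named outside this rule, after their values were seen. Genes with larger falls than ASCL2 and IGF2R in the same lists were left unnamed. The stretches of the window were also drawn after the values were seen. Alternatives were other scalings, call limits, windows, peak limits, start distances and a pseudocount of 5. DESeq2 1.42.0 and edgeR 4.0.16 in R 4.3.3 gave scaling factors only. The remaining steps ran in Python 3.11.15 with scipy 1.17.1, pandas 2.3.3, numpy 2.4.6 and matplotlib 3.10.9.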

Additional observations from a re-analysis of the deposited data

Results flagged for a closer look

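Fenretinide can be read in 2 settings that share no library: alone (fenretinide over vehicle) and on top of GSK-126 (combination over GSK-126). In 6 intervals of the window the log2 ratio was below 0 alone and above 0 on top of GSK-126, and the counting interval of the difference excluded 0. The share of all intervals that meets this rule is not given here, so nothing is read from the count. The ratios alone include the fall with fenretinide for which the locus was chosen, so the difference at IGF2 is in part fixed by that choice. With 1 library in each setting the difference was not tested against replicates. At the IGF2 body the log2 ratio on top of GSK-126 minus that alone was 1.54 (1.14 to 1.94), from ratios of 1.13, whose bracket includes 1, and 0.388. The difference was 1.21 at chr11:2152691-2156039 in INS-IGF2, where the ratio on top of GSK-126 was 1.75 (0.870 to 3.66), a bracket that includes 1. It was 0.78 both at the block between H19 and IGF2 and at the LSP1 and TNNT3 interval chr11:1883035-1939085. It was 0.51 at chr11:2198808-2233349 and 0.50 at chr11:2234731-2245619, both on the ASCL2 side. At the first of these the ratio on top of GSK-126 was 1.04 (0.907 to 1.18) and turned to 0.947 with DESeq2 size factors and 0.959 with TMM factors.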

How the results depend on the processing

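Of 143 recomputed values 111 stayed within their counting interval or within 1.5 times the count, and 32 moved. Of the values called by library share none turned direction, while the block, which was not called, turned with the scaling. At the IGF2 body, background scaling gave 0.1002 for GSK-126, 0.1095 for the combination and 0.3102 for the combination over fenretinide, and scaling to the window's other intervals gave 0.3498 (GSK-126), 0.5596 (fenretinide), 0.3561 (combination) and 0.6364 (combination over fenretinide). At the block, background scaling gave 0.4035 (GSK-126), 0.668 (fenretinide), 0.4927 (combination) and 0.7375 (combination over fenretinide), and scaling to the window's other intervals gave 1.728, 1.143, 2.079 and 1.818 in the same order. DESeq2 size factors gave 0.6729 for fenretinide and 0.7901 for the combination there, and TMM factors 0.7753 for the combination. At a 1.5-fold limit 1 interval was higher with GSK-126, 6 were lower with fenretinide and 1 was higher with the combination. A minimum of 50 fragments left 5 lower with GSK-126. Under background scaling 15 were lower with GSK-126, 15 with the combination and 11 with the combination over fenretinide, where 0 were then higher. The shares of all intervals called under these changed settings are not given here, so nothing about the window is read from these counts. The window's ratio was 0.5515 (GSK-126) and 0.6052 (combination) over intervals wholly inside it, and 0.4776 (GSK-126) and 0.7023 (fenretinide) with 100 kb added on each side. The cause of these moves was not tested.

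With a pseudocount of 5, 5 of the 6 intervals and 6 of the 6 genes most like IGF2 were shared with those named. No paired analysis was possible because each condition had 1 library. Leaving out a library gave no value for the same reason. Ratios of short intervals rest on few fragments, and intervals exist only where a peak was called, so loss at places without a peak cannot be seen.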
